A study of Mus musculus with 6 samples.

Results

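The genes described here are 35 genes of the endoplasmic reticulum, grouped by role into chaperones, disulfide isomerases, the calnexin cycle, disposal of misfolded proteins, the translocon, and the sensors of the unfolded protein response. They were taken by name from a table of 16135 genes, and all 35 were found in it. Each gene has 1 FPKM value per library, that is, its fragments relative to gene length and library size, so levels can be compared between genes. The libraries came from whole liver of mice of 2 genotypes, ACSS2-flox (the control, with a floxed Acss2 gene) and ACSS2-HKO (the knockout in hepatocytes), with 3 libraries each. They are called the control and the knockout here. Both groups were fed the Lieber-Decarli ethanol diet for 10 days and then received 1 ethanol binge, so no group without ethanol was compared here. The labels used here give no strain, sex, age or Cre line. They do not say whether each library came from its own animal, so p-values measure the spread between these libraries, which may be partly technical.

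The endoplasmic reticulum is where secreted and membrane proteins enter through the translocon, receive disulfide bonds and sugars, and fold with the help of chaperones. Proteins that fail to fold are sent back to the cytosol and degraded, a route called ERAD. When unfolded proteins build up, 3 sensors act: ATF6 and the IRE1-XBP1 branch switch on chaperone and ERAD genes, while PERK slows protein synthesis. Hepatocytes, which secrete albumin and most other plasma proteins, carry a large endoplasmic reticulum.

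Many genes of the unfolded protein response carry a short promoter sequence, the endoplasmic reticulum stress element (ERSE), at which ATF6 and the constitutive factor NF-Y are known to bind. The element, CCAAT and CCACG with 9 bases between them, was searched on both strands of RefSeq promoter windows of 300 bases (250 before to 50 after the annotated start, GRCm38.p6). A window was found for 29 of the 35 genes, and none for Hyou1, Manf, Derl1, Sec61a1, Ssr2 and Atf6. The ERSE was present in 9 of the 29 (31.0%), against 37 of all 27025 genes with a window (0.137%). The shorter ERSE-II, ATTGG and CCACG with 1 base between them, was present in 2 of the 29 (6.90%), Dnajb11 and Herpud1, against 12 of all genes (0.0444%). The elements of these 11 genes are shown, with 12 bases of window on each side, because they were far more frequent in member windows than in all windows. The members were chosen by name and include genes of the unfolded protein response, so this excess is a description and no test. The other 18 member windows held neither. Each line runs 5′ to 3′ on the strand of its gene, and the capitals mark the fixed letters of the element, which read as CGTGG and ATTGG where an ERSE lies on the opposite strand.
Hspa5: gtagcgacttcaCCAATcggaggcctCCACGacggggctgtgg
Pdia6: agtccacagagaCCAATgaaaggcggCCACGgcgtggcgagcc
Dnajc3: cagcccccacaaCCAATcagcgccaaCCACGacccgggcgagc
Calr: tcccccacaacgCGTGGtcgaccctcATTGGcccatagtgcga
Canx: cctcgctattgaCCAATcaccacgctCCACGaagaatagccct
Creld2: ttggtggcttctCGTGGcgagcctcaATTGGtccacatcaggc
Syvn1: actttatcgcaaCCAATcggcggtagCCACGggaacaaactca
Derl3: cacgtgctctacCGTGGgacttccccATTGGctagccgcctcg
Hsp90b1: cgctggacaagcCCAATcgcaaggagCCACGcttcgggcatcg
Dnajb11: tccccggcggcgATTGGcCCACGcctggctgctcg
Herpud1: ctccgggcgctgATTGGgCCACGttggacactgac

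The windows of Hspa5 (chr2:34771840-34772139), Pdia6 (chr12:17266339-17266638), Dnajc3 (chr14:118937682-118937981), Creld2 (chr15:88819396-88819695), Syvn1 (chr19:6046326-6046625), Derl3 (chr10:75893148-75893447), Dnajb11 (chr16:22857595-22857894) and Herpud1 (chr8:94386179-94386478) lie on the plus strand. Those of Calr (chr8:84846882-84847181), Canx (chr11:50325624-50325923) and Hsp90b1 (chr10:86705395-86705694) lie on the minus strand. Hsp90b1 held the element a further time, on the opposite strand. Counted from the annotated start, the ERSE lay at bases -65 to -47 in Hspa5 and -98 to -80 in Pdia6, and the ERSE-II at -52 to -42 in Herpud1 and 8 to 18 in Dnajb11.

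The parts of the element were far less selective than its full form. The NF-Y box alone (CCAAT) was in 75.9% of member windows and 41.1% of all windows, and the CCACG core in 82.8% and 35.5%. The core bound by XBP1 (ACGTGG) always holds CCACG on its other strand, so its windows are among those with CCACG. It was in 31.0% and 9.40%. The cAMP response element (TGACGTCA) was in 0 of 29 member windows and 2.03% of all. A match shows only that these letters are present, and a window without one holds no exact copy.

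**Figure D1:**
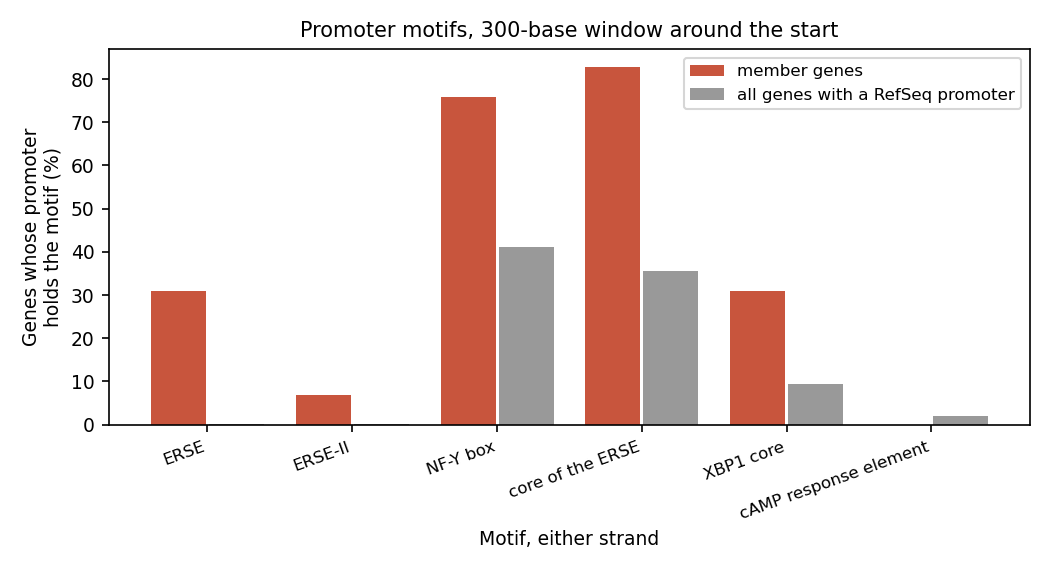
Bars give the percent of genes whose promoter window holds each motif on either strand, for the 29 member genes with a window (red) and for all 27025 genes with one (grey). The full ERSE stood at 31.0% in members and 0.137% in all genes, a grey bar too short to see.

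Sdf2l1, which had the largest log2 fold change of the tested members, had neither element, and its window (chr16:17132334-17132633, minus strand) is printed whole for that reason. It held 4 copies of the NF-Y box and 3 of the CCACG core, in capitals on either strand, at other spacings.
Sdf2l1: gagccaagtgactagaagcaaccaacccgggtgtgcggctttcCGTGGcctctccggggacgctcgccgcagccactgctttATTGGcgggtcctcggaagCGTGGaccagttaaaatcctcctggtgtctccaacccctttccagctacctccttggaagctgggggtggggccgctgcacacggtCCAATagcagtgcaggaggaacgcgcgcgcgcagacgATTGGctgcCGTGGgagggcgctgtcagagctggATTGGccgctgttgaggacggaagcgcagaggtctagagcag

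The libraries held 33717125 to 39474527 fragments. Albumin (Alb), which defines hepatocytes, read 59759, 46728 and 43383 FPKM in the control livers and 42064, 40501 and 38187 FPKM in the knockout livers, lower without overlap. Of the 10 hepatocyte markers, 7 were negative and 2 did not overlap downward (2.94% of all tested genes), with a median log2 fold change of -0.23. Upward 1 did not overlap (12.5% of all tested genes), Trf at 0.70 ± 0.36. Without ACSS2-flox replicate 1 and ACSS2-HKO replicate 3 the median of the markers was -0.10, with 4 of 10 positive (54.9% of all genes). The part of these marker differences in the folding genes was not tested. The targeted gene Acss2 read 87.8, 61.5 and 58.5 FPKM in the control livers and 50.6, 38.4 and 45.7 FPKM in the knockout livers, without overlap (log2 fold change -0.60 ± 0.21, limma adjusted p = 0.637). A pair of libraries stood apart: ACSS2-flox replicate 1, whose 8 endothelial markers had a median of -1.24 relative to the control mean on the log2 scale, and ACSS2-HKO replicate 3, whose 23 acute phase genes had one of 2.08. They are called the distant libraries here. ACSS2-flox replicate 1 had the lowest value of all 6 libraries for 17 of the 35 members, and ACSS2-HKO replicate 3 the highest for 17.

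Most folding genes read higher in ACSS2-HKO liver and the ERAD gene Herpud1 read lower. No gene passed the adjusted threshold, so these are differences in level and not calls. Of the 35 genes, 34 had a mean of at least 1 FPKM and were tested; Derl3 fell below. With limma on log2(FPKM + 1), 0 of the 34 had an adjusted p under 0.05, and 0% of all 9818 tested genes did in either direction. A log2 fold change is the knockout mean minus the control mean on that scale, which understates the change of low genes, and ± after one is its standard error. They were positive for 30 of 34 members, against 66.0% of all tested genes. Their median was 0.39 and that of all tested genes 0.10.

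At an unadjusted p under 0.05, limma gave 10 members higher and 1 lower, where 6.09% of all tested genes were higher and 1.50% lower. With voom on recovered fragments, 9 were higher and 1 lower (5.71% and 1.40% of all genes), and again 0 passed after adjustment. Every ACSS2-HKO library lay above every ACSS2-flox library for 12 members (12.5% of all genes) and below for 1 (2.94%). For each of these 13 genes the exact two-sided permutation p was 0.1, the smallest that 3 against 3 libraries allow. The counts depended on scaling. With median-ratio scaling, 5 members were higher at an unadjusted p under 0.05 (3.78% of all genes) and 6 did not overlap upward (7.55%). The median of all genes was then -0.01 and that of members 0.26, with 29 of 34 positive (49.0% of all genes). Over all genes, the split at an unadjusted p under 0.05 was 598 higher and 147 lower as deposited, and 371 and 302 with that scaling. Herpud1 stayed the 1 lower gene by both counts under that scaling, where 3.08% and 6.75% of all genes were lower.

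**Figure D2:**
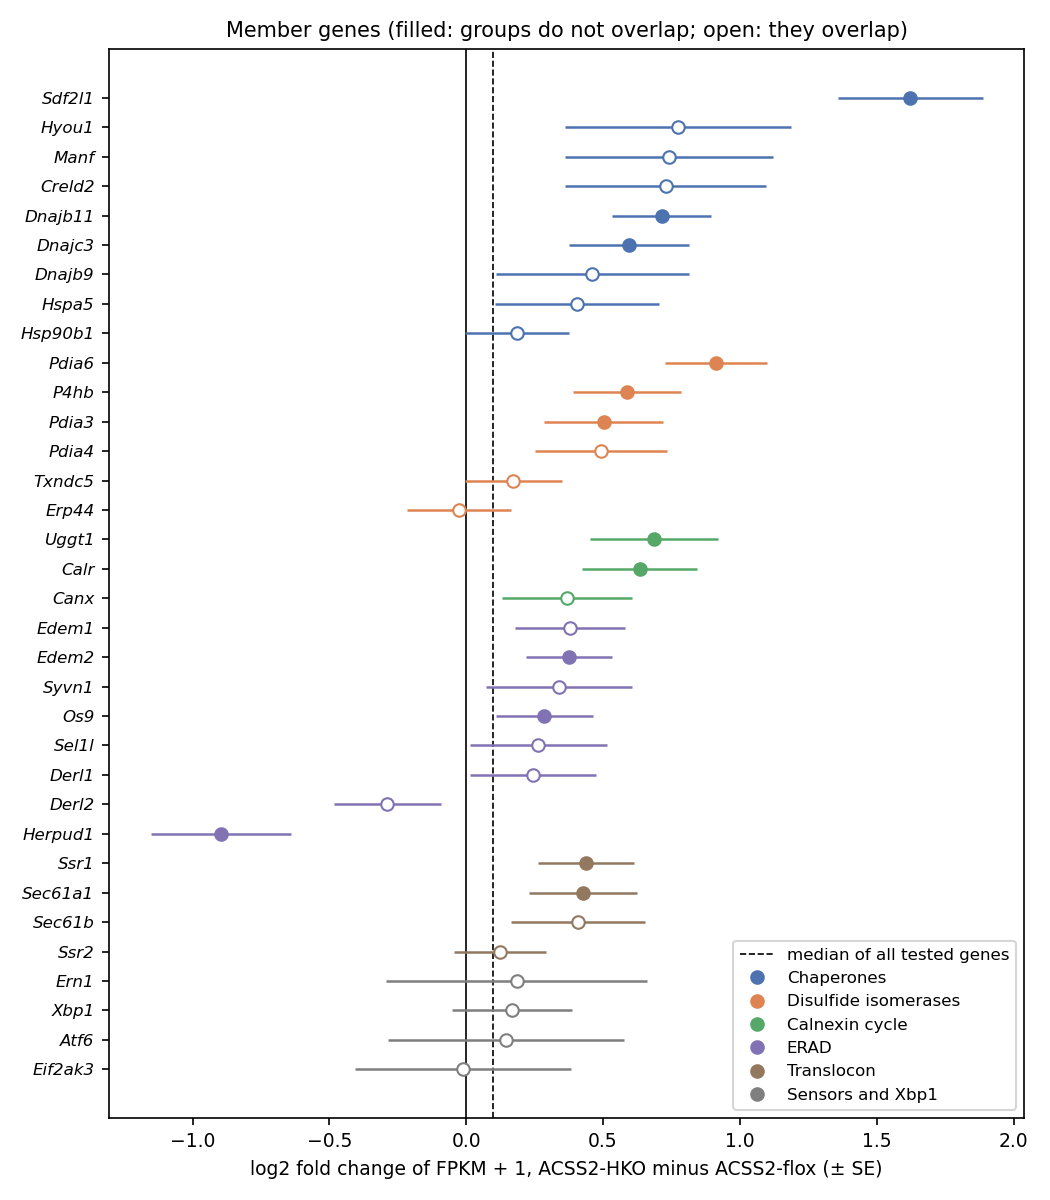
Points are log2 fold changes of the 34 tested members by role, with standard errors (n = 3 against 3 libraries); the dashed line is the median of all tested genes, 0.10. Filled points, where the groups do not overlap, include Sdf2l1 at 1.62 and Herpud1 at -0.90.

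The distant libraries bore on these counts. Without both, 25 of 34 members were positive (54.9% of all genes), with a median of 0.20 against 0.03 for all genes. Without both, 10 members were higher at an unadjusted p under 0.05, 9 of them among the 10 above, and 3 were lower, Herpud1, Ern1 and Eif2ak3 (5.26% and 3.82% of all genes). Not overlapping were 16 upward and 4 downward (23.1% and 17.8%), which fewer libraries make easier. Without ACSS2-flox replicate 1 alone, 11 members were higher, 2 lower and 27 positive (5.07%, 4.66% and 52.4% of all genes). Without ACSS2-HKO replicate 3 alone, 6 were higher, 1 lower and 31 positive (2.75%, 0.761% and 70.9%).

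As a share of the library, the 35 genes together took 0.641%, 0.744% and 0.645% of fragments in ACSS2-flox replicates 1, 2 and 3. They took 0.846%, 0.850% and 0.951% in ACSS2-HKO. The groups did not overlap, with means of 0.676% ± 0.0585 and 0.882% ± 0.0599 (SD, n = 3). Abundant genes weigh most in such a total. P4hb alone made up 18.7% to 22.1% of the summed member FPKM in ACSS2-flox and 19.5% to 28.0% in ACSS2-HKO. In bulk tissue, fewer cells of a type and less RNA per cell cannot be told apart.

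Chaperones bind unfolded chains and hold them in the lumen. All 9 had a positive fold change (66.0% of all genes), with a median of 0.71 on the log2 scale, and 3 did not overlap upward (12.5%). Without both distant libraries the median was 0.21, with 8 of 9 positive (54.9% of all genes). Sdf2l1 (chromosome 16, 17130138 to 17132383) encodes a lumenal protein that works with the Hsp40 chaperone ERdj3. It read 10.97, 8.30 and 5.65 FPKM in the control livers and 20.6, 28.4 and 33.1 FPKM in the knockout livers. Every knockout value lay well above every control value. The knockout mean, 27.3 ± 6.30 FPKM (SD, n = 3), was 3.29 times the control mean, 8.31 ± 2.66 FPKM. That is 1.62 ± 0.26 on the log2 scale (limma adjusted p = 0.452), and its p ranked 3 among the 9818 genes. It stayed between 1.40 and 1.82 with any 1 library left out.

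Dnajb11, which encodes ERdj3 itself, read 12.2, 17.2 and 14.6 FPKM in the control livers and 23.4, 25.9 and 24.2 FPKM in the knockout livers. The knockout libraries lay close together and above all controls (log2 fold change 0.71 ± 0.18, limma adjusted p = 0.580). Dnajc3 encodes the co-chaperone p58IPK. It read 23.2, 39.9 and 32.5 FPKM in the control livers and 44.0, 50.1 and 48.6 FPKM in the knockout livers, again without overlap (0.60 ± 0.22, limma adjusted p = 0.637). For Dnajc3 this was 0.39 without ACSS2-flox replicate 1 and 0.37 without both distant libraries, and its unadjusted p was above 0.05 without both or without ACSS2-flox replicate 3, ACSS2-HKO replicate 2 or ACSS2-HKO replicate 3.

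The best known chaperone genes overlapped between the groups. Hspa5, which encodes BiP, the main Hsp70 of the organelle, read 147, 230 and 137 FPKM in the control livers and 176, 187 and 327 FPKM in the knockout livers. ACSS2-flox replicate 2 lay above 2 knockout libraries, and ACSS2-HKO replicate 3 above all others. Its log2 fold change was 0.40 ± 0.30 (limma adjusted p = 0.761), and 0.03 without both distant libraries. Hsp90b1, which encodes the Hsp90 of the organelle, GRP94, read 290, 304 and 239 FPKM in the control livers and 297, 297 and 350 FPKM in the knockout livers, a log2 fold change of 0.18 ± 0.19.

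Hyou1, Creld2, Manf and Dnajb9 were also highest in ACSS2-HKO replicate 3. Hyou1, the large Hsp70 relative that exchanges nucleotide on BiP, read 8.62, 21.2 and 11.02 FPKM in the control livers and 12.8, 23.5 and 36.9 FPKM in the knockout livers. Manf, a secreted and lumenal stress protein, read 53.2, 53.9 and 34.6 FPKM in the control livers and 46.1, 73.5 and 140 FPKM in the knockout livers. In both, ACSS2-HKO replicate 1 lay among the controls and replicate 3 far above. The ratio of ACSS2-HKO replicate 3 to the mean of replicates 1 and 2 was 2.34 for Manf, 2.19 for Creld2, 2.03 for Hyou1, 1.80 for Hspa5 and 1.77 for Dnajb9. It was 0.980 for Dnajb11 and 1.03 for Dnajc3. Fold changes were 0.77 ± 0.41 for Hyou1, 0.74 ± 0.38 for Manf, 0.73 ± 0.37 for Creld2 and 0.46 ± 0.35 for Dnajb9 on the log2 scale. Without both distant libraries they were 0.17, 0.42, 0.21 and -0.13.

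**Figure D3:**
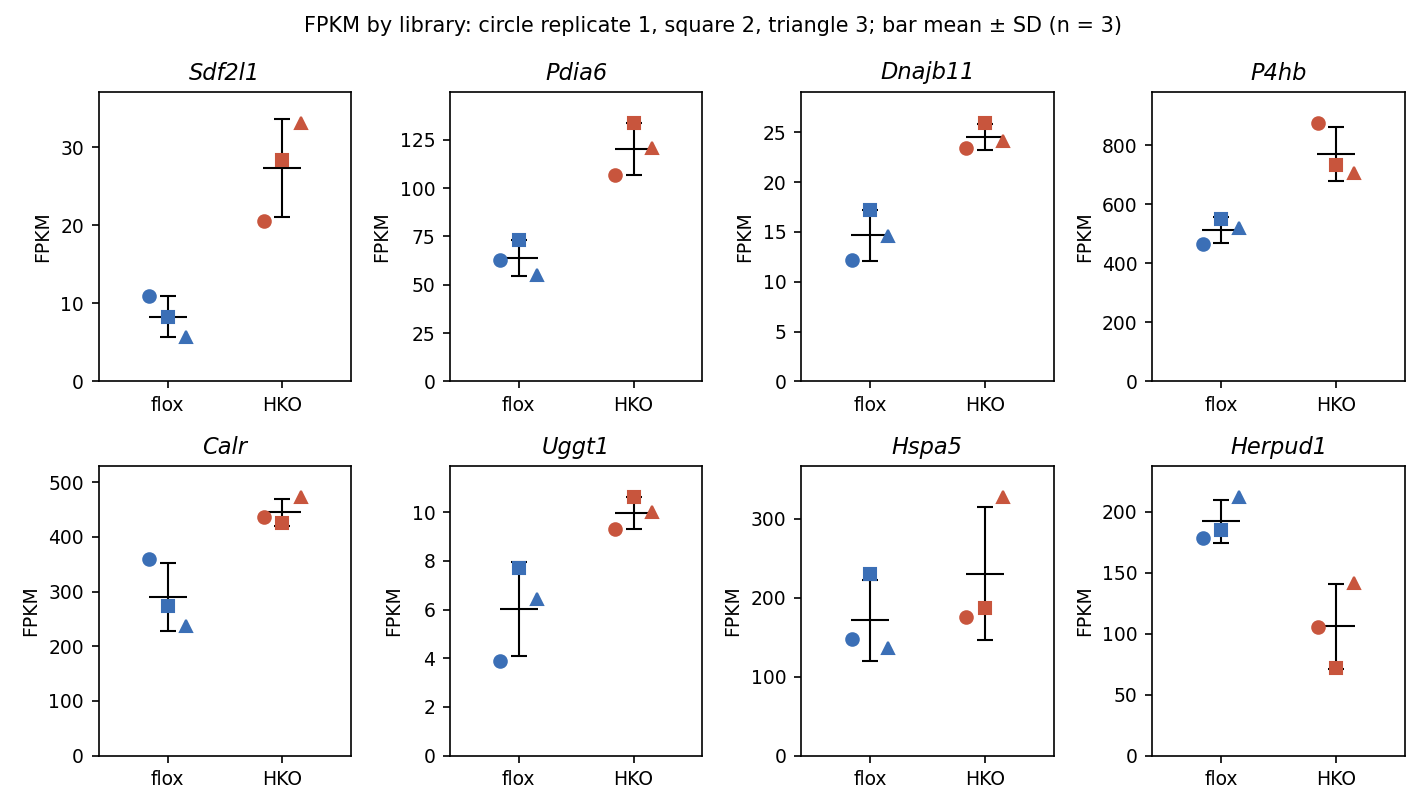
Each panel gives FPKM (vertical axis from 0) of 1 gene in ACSS2-flox (blue) and ACSS2-HKO (red), with the shape marking the replicate number and bars the mean ± SD (n = 3). In the panels of Sdf2l1, Pdia6, Dnajb11, P4hb, Calr and Uggt1 all red points lie above all blue points, for Hspa5 they overlap, and for Herpud1 all red points lie below.

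Disulfide isomerases form and rearrange the disulfide bonds of secreted proteins. Of 6 genes 5 were positive (66.0% of all genes), with a median of 0.50, and 3 did not overlap upward (12.5%). P4hb, which encodes protein disulfide isomerase itself, had the highest level of all 35 genes in every library. It read 464, 551 and 520 FPKM in the control livers and 874, 731 and 705 FPKM in the knockout livers. Here the highest knockout value was that of replicate 1, unlike the chaperones that peaked in replicate 3. Its means were 511 ± 43.8 and 770 ± 91.2 FPKM (SD, n = 3), or 0.59 ± 0.20 on the log2 scale (limma adjusted p = 0.637). With median-ratio scaling P4hb stood at 0.46, still without overlap, and its unadjusted limma p was 0.072. That p was also above 0.05 without ACSS2-HKO replicate 1 or with replicate number in the model.

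Pdia6, an isomerase with a role in restraining the IRE1 signal, read 62.9, 73.2 and 54.9 FPKM in the control livers and 107, 134 and 121 FPKM in the knockout livers. The groups did not overlap (0.91 ± 0.19 on the log2 scale, limma adjusted p = 0.494). It ran from 0.81 to 1.02 with any 1 library left out. Pdia3 encodes the isomerase that serves glycoproteins held by calnexin and calreticulin. It read 160, 110 and 100 FPKM in the control livers and 165, 165 and 185 FPKM in the knockout livers. ACSS2-flox replicate 1 came within a few FPKM of the knockout libraries, and with median-ratio scaling its log2 fold change was 0.37 in place of 0.50 and the groups overlapped.

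The remaining isomerases overlapped between the groups. Pdia4 had a log2 fold change of 0.49 ± 0.24 and Txndc5 one of 0.17 ± 0.18. Erp44, which retrieves unassembled proteins from the Golgi, had one of -0.03 ± 0.19 and read 14.4 to 20.3 FPKM across all 6 libraries.

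The calnexin cycle holds glycoproteins until they fold, with UGGT1 as the enzyme that marks those still unfolded. All 3 genes were positive (66.0% of all genes), with a median of 0.63. The lectin chaperone gene Calr, encoding calreticulin, read 360, 274 and 237 FPKM in the control livers and 437, 425 and 472 FPKM in the knockout livers. Uggt1 read 3.90, 7.69 and 6.44 FPKM in the control livers and 9.31, 10.6 and 9.99 FPKM in the knockout livers. In both genes the knockout libraries were tightly grouped above the controls, with log2 fold changes of 0.63 ± 0.21 and 0.68 ± 0.23 (limma adjusted p = 0.637 for each). With median-ratio scaling, Calr overlapped between the groups and Uggt1 did not. Without ACSS2-flox replicate 1, Uggt1 stood at 0.45. The membrane-bound partner Canx read 43.4, 76.8 and 65.9 FPKM in the control livers and 67.7, 84.8 and 83.2 FPKM in the knockout livers, with overlap (0.37 ± 0.24, and 0.13 without ACSS2-flox replicate 1).

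Of the ERAD genes, 6 of 8 tested were positive (66.0% of all genes), with a median of 0.27 that was -0.01 without both distant libraries. Herpud1 (chromosome 8, 94386438 to 94395377) encodes a membrane protein that organises the ubiquitin ligase complex of ERAD. It read 179, 185 and 212 FPKM in the control livers and 106, 71.7 and 141 FPKM in the knockout livers. Every knockout library was below every control, with means of 192 ± 17.5 and 106 ± 34.8 FPKM (SD, n = 3) and a ratio of 0.553. Its log2 fold change was -0.90 ± 0.26 (limma adjusted p = 0.607), between -1.13 and -0.64 with any 1 library left out and -1.18 without both distant libraries. Herpud1 carries an ERSE-II, as does Dnajb11, which read higher.

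The ubiquitin ligase gene Syvn1 and its partner gene Sel1l had log2 fold changes of 0.34 ± 0.27 and 0.26 ± 0.25, both with overlapping groups and both near 0 without both distant libraries (-0.08 and -0.05). Edem2, which trims mannose from glycoproteins bound for disposal, read 24.1, 23.0 and 23.8 FPKM in the control livers and 29.0, 31.9 and 32.0 FPKM in the knockout livers. The groups did not overlap (0.38 ± 0.16, limma adjusted p = 0.649). The lectin gene Os9 also did not overlap (0.29 ± 0.18, and 0.18 without ACSS2-flox replicate 3). With median-ratio scaling the groups overlapped for both genes. Edem1 read 0.38 ± 0.20, Derl1 0.24 ± 0.23 and Derl2 -0.29 ± 0.20 on the log2 scale, with overlap in each.

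Derl3, the derlin known from secretory cells, was the lowest member. It read 0.31, 0.48 and 0.12 FPKM in the control livers and 1.94, 1.31 and 0.64 FPKM in the knockout livers, from 14, 24 and 6 fragments against 92, 63 and 34. All knockout values were above all control values, a ratio of means of 4.29, at a level too low for the test. The plasma cell gene Jchain also read higher in the knockout, with 3.85, 1.52 and 0.87 FPKM in the control livers and 4.12, 6.45 and 7.71 FPKM in the knockout livers. The 10 plasma and B cell markers in the table summed to 57.5 to 87.4 FPKM in ACSS2-flox and 97.4 to 111 FPKM in ACSS2-HKO, mostly from Sdc1, which hepatocytes also express. None of them was at 0 in all libraries, but only 4 of the 10 reached the level for testing. Their part in the Derl3 difference was not tested.

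The translocon is the channel through which new chains enter, and the Ssr genes encode its associated TRAP complex. All 4 genes were positive (66.0% of all genes), with a median of 0.42. The channel gene Sec61a1 read 39.6, 51.5 and 42.0 FPKM in the control livers and 52.0, 56.7 and 71.98 FPKM in the knockout livers. Its lowest knockout value was barely above its highest control value (0.43 ± 0.20, limma adjusted p = 0.657). Ssr1 read 10.1, 7.55 and 7.87 FPKM in the control livers and 11.6, 11.5 and 12.2 FPKM in the knockout livers (0.44 ± 0.18). Both genes overlapped between the groups with median-ratio scaling. Sec61b and Ssr2 overlapped, at 0.41 ± 0.24 and 0.12 ± 0.17, and Ssr2 turned to -0.01 with median-ratio scaling.

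The sensors and Xbp1 had 3 of 4 positive (66.0% of all genes), with a median of 0.16. Without both distant libraries 0 of 4 were positive (54.9% of all genes). Xbp1 read 65.9, 67.0 and 95.5 FPKM in the control livers and 75.3, 76.6 and 104 FPKM in the knockout livers (log2 fold change 0.17 ± 0.22, limma adjusted p = 0.880). An FPKM per gene does not separate spliced from unspliced Xbp1, the step by which IRE1 acts. Ern1, which encodes IRE1, read 3.92, 18.7 and 16.9 FPKM in the control livers and 11.1, 14.4 and 12.6 FPKM in the knockout livers. Atf6 read 5.82, 24.3 and 17.7 FPKM in the control livers and 16.1, 17.3 and 12.9 FPKM in the knockout livers. In both, ACSS2-flox replicate 1 was far below the other controls, and the knockout libraries lay between. Their log2 fold changes were 0.18 ± 0.48 and 0.14 ± 0.43, although the ratios of mean FPKM were 0.966 and 0.968. Without ACSS2-flox replicate 1 they were -0.46 and -0.41. The PERK gene Eif2ak3 read 2.01, 6.65 and 6.45 FPKM in the control livers and 2.91, 4.61 and 6.65 FPKM in the knockout livers (-0.01 ± 0.39).

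Gene length moved with ACSS2-flox replicate 1. Among the 17 tested members longer than 2950 bases, that library read a median of 0.608 times the mean of the other 2 controls, against 1.03 times for the 17 shorter ones. The median log2 fold change was 0.49 in the shorter genes and 0.29 in the longer. Without ACSS2-flox replicate 1 it was 0.57 and 0.13. After a loess correction for length it was 0.48 and 0.26, so the shorter genes held the larger differences either way.

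**Figure D4:**
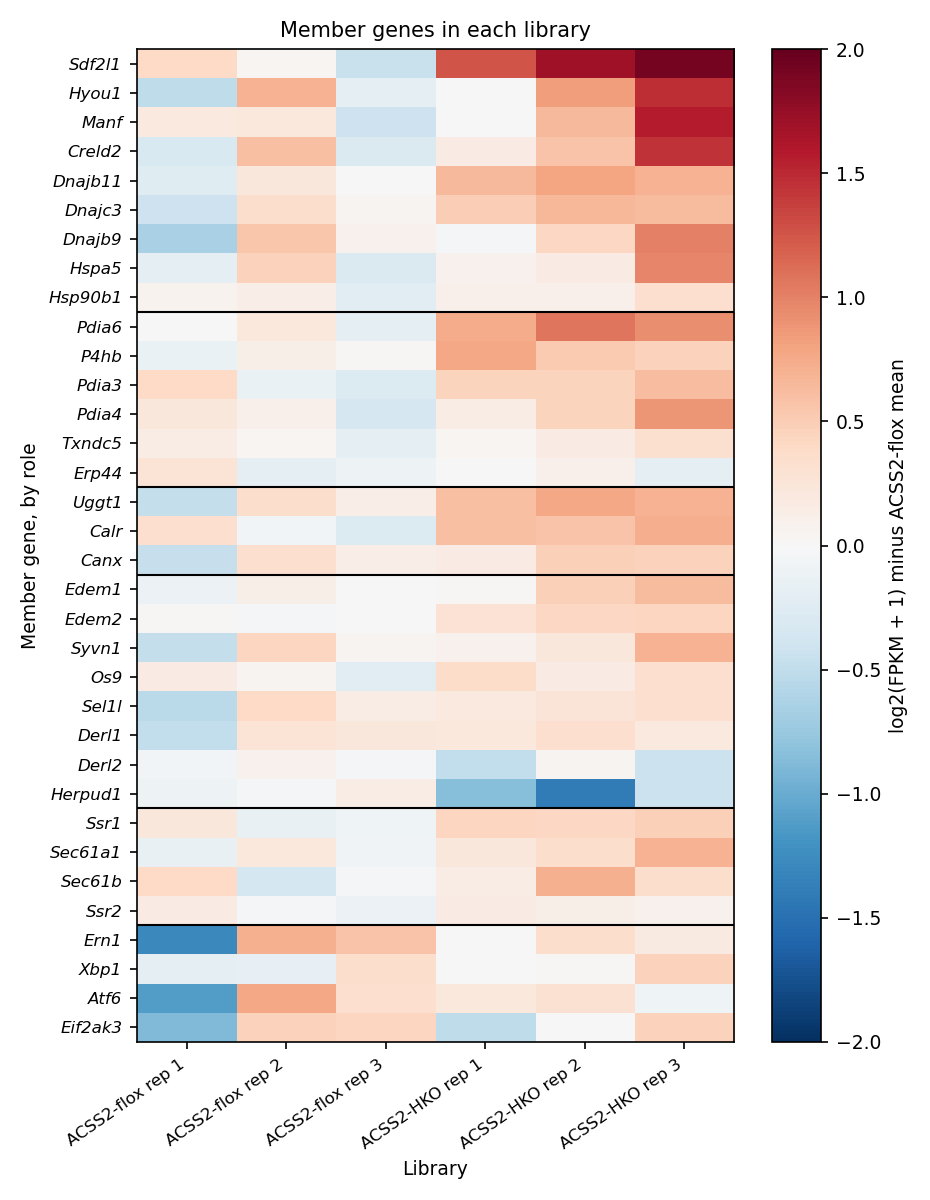
Rows are the 34 tested members by role and columns the 6 libraries; colour gives log2(FPKM + 1) minus the mean of the ACSS2-flox libraries, red higher and blue lower. Sdf2l1 is red in all 3 ACSS2-HKO columns and Herpud1 blue in them, while Ern1 and Atf6 are blue in ACSS2-flox replicate 1 and Manf, Creld2 and Hyou1 are a deeper red in ACSS2-HKO replicate 3 than in replicates 1 and 2.

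The fold changes were also read by promoter element. The 10 tested members with an ERSE or ERSE-II had a median log2 fold change of 0.50, with 9 positive, 4 not overlapping upward and 1, Herpud1, downward. The 18 with neither had a median of 0.38, with 15 positive, 7 not overlapping upward and 0 downward. Over all genes 66.0% were positive, 12.5% did not overlap upward and 2.94% did not overlap downward. Among genes that are not members, 6 tested ones held an ERSE, with 4 positive and a median of 0.15, and 7 held an ERSE-II, with 4 positive and a median of 0.14. These are descriptions, with no test.

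The wider machinery of the organelle was read from 7 further lists holding 131 tested genes. Of these, 102 were positive (66.0% of all genes), with a median of 0.22. At an unadjusted p under 0.05, 12 were higher and 1 lower (6.09% and 1.50% of all genes), and 33 did not overlap upward and 4 downward (12.5% and 2.94%). With median-ratio scaling 84 were positive (49.0% of all genes) and the median was 0.10. Without both distant libraries 87 were positive (54.9%) and the median was 0.09.

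Glycosylation genes had the highest median of the 7 lists, 0.38. Of 18 tested, 17 were positive and 4 higher at an unadjusted p under 0.05 (66.0% and 6.09% of all genes). Ddost encodes a subunit of the oligosaccharyltransferase, which adds the N-glycan that the calnexin cycle reads. It read 43.0, 46.4 and 41.4 FPKM in the control livers and 62.5, 61.4 and 71.9 FPKM in the knockout livers (0.57 ± 0.16, limma adjusted p = 0.608), and Rpn1, another subunit gene, had a log2 fold change of 0.53 ± 0.17. Neither gene overlapped between the groups. Magt1, also a subunit gene, was the 1 negative gene of the list (-0.02 ± 0.19, with overlap). Of the other lists, translocation had 18 of 20 positive (median 0.27), with Spcs3 of the signal peptidase at 0.45 ± 0.16 and Sec62 at -0.15 ± 0.21. Further chaperones had 18 of 19 positive (0.26), with the prolyl isomerase gene Fkbp11 at 0.57 ± 0.20 and Fkbp14 at -0.19 ± 0.21. Further disulfide genes had 13 of 15 positive (0.21), with the sulfhydryl oxidase gene Qsox1 at 0.69 ± 0.21 and Vkorc1 at -0.22 ± 0.23.

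Transport and disposal were mixed, where 66.0% of all genes were positive. Genes of COPII vesicles, which carry cargo to the Golgi, and of retrieval had 15 of 18 positive (0.20). Among them the coat gene Sec13 read 0.44 ± 0.19, while the small GTPase gene Sar1b read 192, 149 and 176 FPKM in the control livers and 143, 125 and 93.4 FPKM in the knockout livers (-0.53 ± 0.21, no overlap). Further ERAD genes had 11 of 21 positive and a median of 0.03, with the ubiquitin ligase gene Rnf185 at 0.41 ± 0.22 and Fam8a1 at -0.28 ± 0.17, neither overlapping. The transcription factors and PERK targets had 10 of 20 positive and a median of 0.03. Creb3l2 stood at 1.05 ± 0.37, its groups overlapping, and at 0.41 without both distant libraries. Ppp1r15b stood at -0.22 ± 0.18, also with overlap. By limma 0 of the 131 genes passed the adjusted threshold.

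Acute phase genes and immune cell markers were highest in ACSS2-HKO replicate 3 too. Relative to the control mean, the 23 acute phase genes had medians of 0.78, 0.84 and 2.08 in knockout replicates 1, 2 and 3, and -0.05 to 0.07 in ACSS2-flox. The median of the 9 chaperones was 0.11, 0.65 and 1.01 in the same knockout libraries and -0.24 to 0.35 in the controls. That of the 6 disulfide isomerases was 0.30, 0.45 and 0.54, and that of the calnexin cycle 0.60, 0.57 and 0.69. The 12 macrophage markers, all tested and all positive, summed to 466 to 756 FPKM in ACSS2-flox and to 909, 882 and 2180 FPKM in ACSS2-HKO. The 14 neutrophil markers summed to 22.1 to 64.1 and to 443, 278 and 6462 FPKM, mostly from Lcn2, which hepatocytes also make. No marker of either list was at 0 in all libraries. Only 6 of the 14 neutrophil markers reached the level for testing, and 4 were at 0 in at least 1 library. The part of these cells and of the acute phase in the folding genes was not tested.

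**Figure D5:**
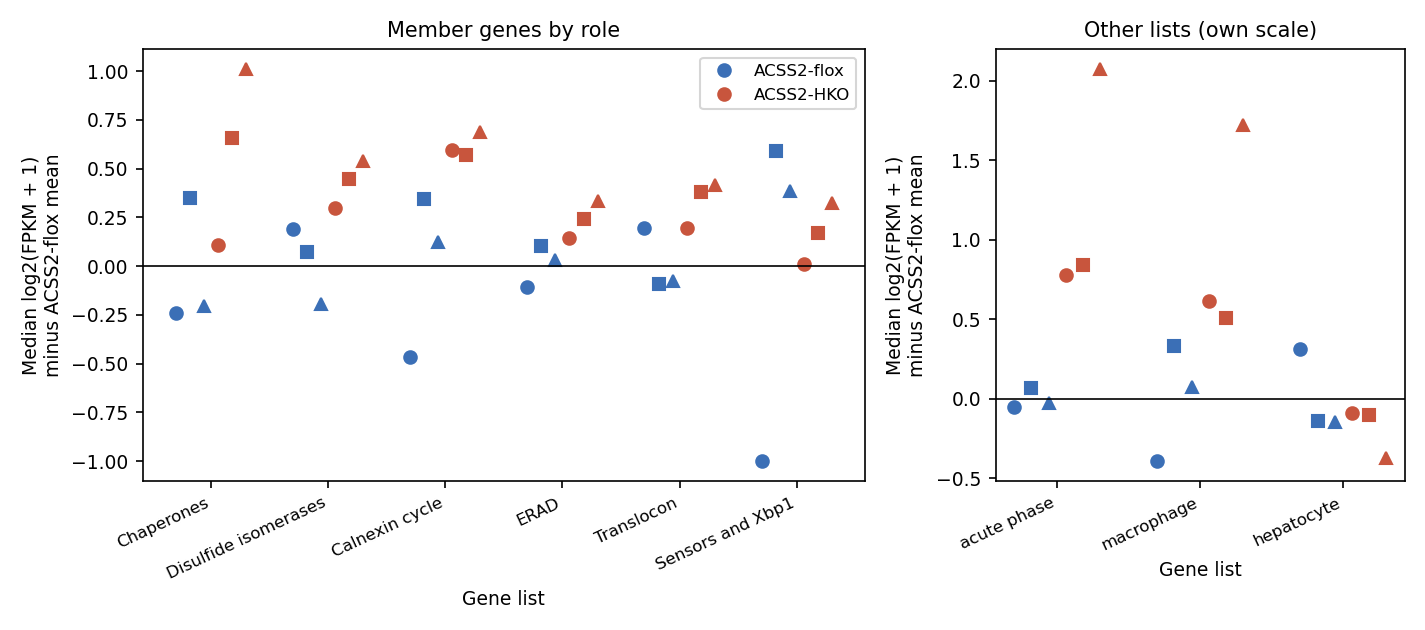
Points are the medians, over the tested genes of each list, of log2(FPKM + 1) minus the ACSS2-flox mean, for each library (blue ACSS2-flox, red ACSS2-HKO; circle, square and triangle mark replicates 1, 2 and 3). Chaperones stand at 1.01 in ACSS2-HKO replicate 3, where acute phase genes stand at 2.08 (right panel, own scale), while the calnexin cycle stays between 0.57 and 0.69 in the 3 knockout libraries.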

How the data were processed

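Liver RNA of 3 ACSS2-flox and 3 ACSS2-HKO libraries was sequenced, and the authors deposited 1 FPKM value per gene and library. The submitters' processing notes name mm10 and DESeq2 without a role. For the aligner, counter and annotation, no source used here gives a name. Whole fragment counts and library totals (33717125 to 39474527 fragments) were recovered from the FPKM values, within 0.01 of a whole number. Groups follow the genotype label. The test was limma 3.58.1 in R 4.3.3 (trend) on log2(FPKM + 1) over the 9818 genes averaging 1 FPKM or more, two-sided, with Benjamini-Hochberg adjustment, tried on simulated data, plus an exact permutation test for single genes. Because FPKM is relative to the library, a rise in abundant genes lowers the values of others. Gene positions are GENCODE M21 (GRCm38). The member genes and lists were chosen with earlier results of these data known. All members were described. Other genes were named from each further list only among the 2 of smallest p in each direction, and not all of these are printed. The 17 alternatives planned and 3 added after the data were seen cover pseudocount, filter, scaling, variance model, replicate block and left-out libraries.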

Additional observations from a re-analysis of the deposited data

How the results depend on the processing

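Of the 34 tested genes, 24 kept the sign of their log2 fold change under all 20 alternatives and 10 did not. No member passed the adjusted limma threshold under any of them, the smallest adjusted p being 0.114 (Sdf2l1, without both distant libraries).

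With single libraries left out, genes past the adjusted threshold ran from 0 to 3 higher and stayed at 0 lower. Members at an unadjusted p under 0.05 ran from 5 to 11 higher and 1 to 2 lower, and members not overlapping from 12 to 20 higher and 1 to 3 lower. The lower counts of 5 came without ACSS2-flox replicate 3 and without ACSS2-HKO replicate 2, and 6 came without ACSS2-HKO replicate 3. The 20 not overlapping upward came without ACSS2-flox replicate 2. Shares of all genes were not counted for the settings that gave 5 and 20. Fewer libraries make separation easier for all genes too, so the 20 is no result about the members. Without ACSS2-flox replicate 1, 15 members did not overlap upward and 3 downward, against 16.5% and 14.5% of all genes. At an unadjusted p under 0.05, 5.07% of all genes were higher and 4.66% lower there. Those shares were 2.75% and 0.761% without ACSS2-HKO replicate 3. The sign turned with single libraries left out for Erp44 (-0.114 to 0.112), Sel1l (-0.00853 to 0.465), Derl1 (-0.00348 to 0.378), Ern1 (-0.459 to 0.543), Atf6 (-0.414 to 0.532) and Eif2ak3 (-0.453 to 0.238). Median-ratio scaling gave 5 members higher and 6 not overlapping upward (3.78% and 7.55% of all genes), with Ssr2 at -0.00603. TPM scaling gave Erp44 0.016 and Eif2ak3 0.014, a pseudocount of 0.1 gave Eif2ak3 0.012, and voom on the recovered fragments 0.011.

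Without both distant libraries the median of members was 0.204. At an unadjusted p under 0.05, 10 were higher and 3 lower (5.26% and 3.82% of all genes). Not overlapping were 16 upward and 4 downward (23.1% and 17.8%). Dnajb9 read -0.135, Erp44 0.194, Sel1l -0.047, Syvn1 -0.076, Xbp1 -0.075, Ern1 -0.458 and Atf6 -0.298. With median-ratio scaling as well, these genes read -0.165, 0.165, -0.077, -0.105, -0.105, -0.487 and -0.328, with Derl1 at -0.010. The median was then 0.174, with 9 members higher and 3 lower, and 14 not overlapping upward and 4 downward. The shares of all genes were not counted there, so these counts are no result about the members. The cause was not tested.

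Libraries of like replicate number were no more alike than others. Deviations from the group means correlated by 0.013, 0.003 and -0.063 across genes for numbers 1, 2 and 3. Between unlike numbers the correlations ran from -0.170 to 0.154. With 3 libraries per group, this cannot tell whether the numbers mark pairs. With the replicate block, 1 gene of the table was higher and 3 lower after adjustment, and 8 members were above and 1 below at the unadjusted threshold (6.70% and 1.75% of all genes). Derl3 rested on the fewest fragments of the members, 6 to 92, and the effect of depth was not tested.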
